A study of Mus musculus with 54 samples.

Results

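The genes described here encode the proteins of the cytosolic ribosome. They are all rows of the mouse count table whose symbol is Rpl or Rps followed by a number and any closing letters, together with Rplp0, Rplp1, Rplp2 and Rpsa, which gave 85 of 35976 rows. Of these, 76 are the standard genes of the mouse ribosome, called core genes below, with 46 of the large subunit and 30 of the small subunit. The other 9 are paralogs or retrocopies, which are Rpl3l, Rpl10l, Rpl39l, Rps4l, Rps27l, Rpl36al, Rpl32l, Rpl37rt and Rps27rt. A few further genes, among them Rps3a1 and Fau, also encode ribosomal proteins, but their symbols do not match the rule and they are counted as neighbours.

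A ribosome is assembled in the nucleolus from ribosomal RNA and about equal amounts of each protein, and the finished large and small subunits join on an mRNA in the cytoplasm. The mRNAs of these proteins typically begin with an unbroken run of C and T, the terminal oligopyrimidine motif, through which mTOR signalling and Larp1 control their translation. In sensory neurons some of these mRNAs are also carried into the axon and translated there, while a renewing epithelium such as that of the cornea makes ribosomes for continued growth.

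The study examined the miR-183 cluster (miR-183C), a group of sensory neuron microRNAs, in the trigeminal ganglion (TG), the cornea that the ganglion innervates, and resident myeloid cells of the cornea (CRMC) and spleen. SNS-CKO mice carried Nav1.8-Cre(+/-), which acts in nociceptive neurons, together with a R26 LSL-RFP(+/+) reporter, Csf1r-EGFP(+/+) and miR-183C f/f, and their wild-type littermates (SNS WT) carried the same Cre with miR-183C +/+. MS-CKO mice carried LysM-Cre(+/-), a knock-in into the myeloid gene Lyz2, with miR-183C f/f and Csf1r-EGFP(+/+), and their controls (MS WT) were LysM-Cre(-/-) with miR-183C f/f. KO mice were homozygous for a gene trap at miR-183C (GT/GT) on a mixed 129S2 and C57BL/6 background with Csf1r-EGFP, and were compared with wild-type mice of that strain (KO-WT). All mice were male and 8 to 12 weeks old. Each of TG and cornea had 3 SNS-CKO, 4 SNS WT, 5 MS-CKO and 5 MS WT libraries. CRMC and spleen cells were sorted for EGFP driven by the Csf1r promoter and pooled over several mice, with 1 library each for KO, KO-WT, MS-CKO and MS-WT. The columns of the KO pools are named CKO without a strain and were read as KO because they lack the MS mark, so every value of the KO pools rests on that reading. The libraries were sequenced from the 3′ ends of polyadenylated RNA, so the microRNAs themselves were not measured and the targeting could not be checked from these counts.

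Total counts were 2934793 to 5387042 in TG, 2366126 to 6741290 in cornea, 2261266 to 10803867 in the CRMC pools and 5140261 to 9790238 in the spleen pools. Sensory neuron markers summed to 16617 to 22054 CPM (counts scaled to a common library total) in TG and 0.6 to 27.0 CPM in cornea, and corneal epithelium markers to 69490 to 82300 CPM in cornea and 263.8 to 344.9 CPM in TG. The counts of 11 MS libraries, 5 of TG and 6 of cornea, stand again, value for value, in columns named for the KO strain. Among these repeats, 1 names a cornea library of MS WT as TG of KO, so both its tissue and its genotype conflict. Another names an MS-CKO library as wild type. The repeats were not used, and counts and medians of MS comparisons are also given without those 11 libraries. No name of a TG or cornea column used here gives SNS or MS. Columns with NACC in the name were read as SNS and those without it as MS. The strain of all 34 TG and cornea libraries rests on that reading. Every SNS library and 3 MS libraries per tissue (WT 5, CKO 4 and CKO 5) carry a second batch mark in their names and are called later, while the other 7 MS libraries per tissue are called earlier. In these names the mark follows the tissue in SNS columns and the word mRNA in MS columns, and both are taken here as the same batch. Strain and batch are therefore largely confounded. Nothing in the labels ties replicates to separate experiments, so p-values measure the spread between these libraries.

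RefSeq promoter windows were found for 64 of the 85 genes (assembly GRCm38.p6). For genes that recur below, 6 windows of 30 bases around the annotated start are printed 5′ to 3′ on the gene's own strand. Capitals mark the unbroken run of C and T that holds the start base, where it is at least 4 bases long. The run can reach upstream of the start, so its length is not that of the motif in the mRNA. In Rps2 it ends at the start base.
Rpl35, chr2:39005117-39005146, minus strand: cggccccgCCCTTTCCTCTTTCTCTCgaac
Rpl15, chr14:18270972-18271001, minus strand: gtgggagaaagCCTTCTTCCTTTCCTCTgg
Rplp2, chr7:141447636-141447665, plus strand: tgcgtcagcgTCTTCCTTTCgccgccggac
Rps2, chr17:24720048-24720077, plus strand: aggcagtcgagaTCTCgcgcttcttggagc
Rpl34, chr3:130730384-130730413, minus strand: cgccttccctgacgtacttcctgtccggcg
Rps12, chr10:23787195-23787224, minus strand: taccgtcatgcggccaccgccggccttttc
The run was 18 bases in Rpl35, 17 in Rpl15, 10 in Rplp2 and 4 in Rps2, and no run of that length held the annotated start of Rpl34 or Rps12. A run of at least 4 bases was found at the start of 22 of 56 core genes with a window (39.3%), when compared to 3685 of 27025 promoters in all (13.6%). A run of at least 8 bases was found in 26.8% of core genes and in 3.82% of all promoters. These are matches of letters at 1 annotated start per gene, with bases upstream of the start counted.

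The share of all counts that fell on the 85 genes set the tissues apart. It was 1.66% ± 0.0809 in TG (SD, n = 17, range 1.48 to 1.78), 5.33% ± 0.440 in cornea (n = 17, range 4.71 to 6.02), 6.05 to 9.002% in the 4 CRMC pools and 11.4 to 14.2% in the 4 spleen pools. No library of any of these kinds reached into the range of another kind. Within TG, the share was 1.57% ± 0.0709 in SNS WT (n = 4), 1.69% ± 0.0343 in SNS-CKO (n = 3), 1.69% ± 0.0810 in MS WT (n = 5) and 1.70% ± 0.0587 in MS-CKO (n = 5). Every SNS-CKO library of TG, at 1.65 to 1.71%, lay above the 4 SNS WT libraries, at 1.48 to 1.63%, whereas the MS genotypes overlapped. Without the repeated libraries, the share was 1.74% in MS WT (n = 3) and 1.75% in MS-CKO (n = 2) of TG, and 5.96% (n = 1) and 5.67% (n = 3) in cornea. In cornea, the share was 5.37% ± 0.366 in SNS WT, 5.18% ± 0.341 in SNS-CKO, 5.21% ± 0.471 in MS WT and 5.50% ± 0.570 in MS-CKO, with overlap in both strains. The later MS cornea libraries lay at 5.96% ± 0.0520 (n = 3) and the earlier at 5.10% ± 0.365 (n = 7), with 2 of the 3 later libraries being MS-CKO. In bulk tissue, fewer cells of a type and less RNA per cell cannot be told apart.

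**Figure D1:**
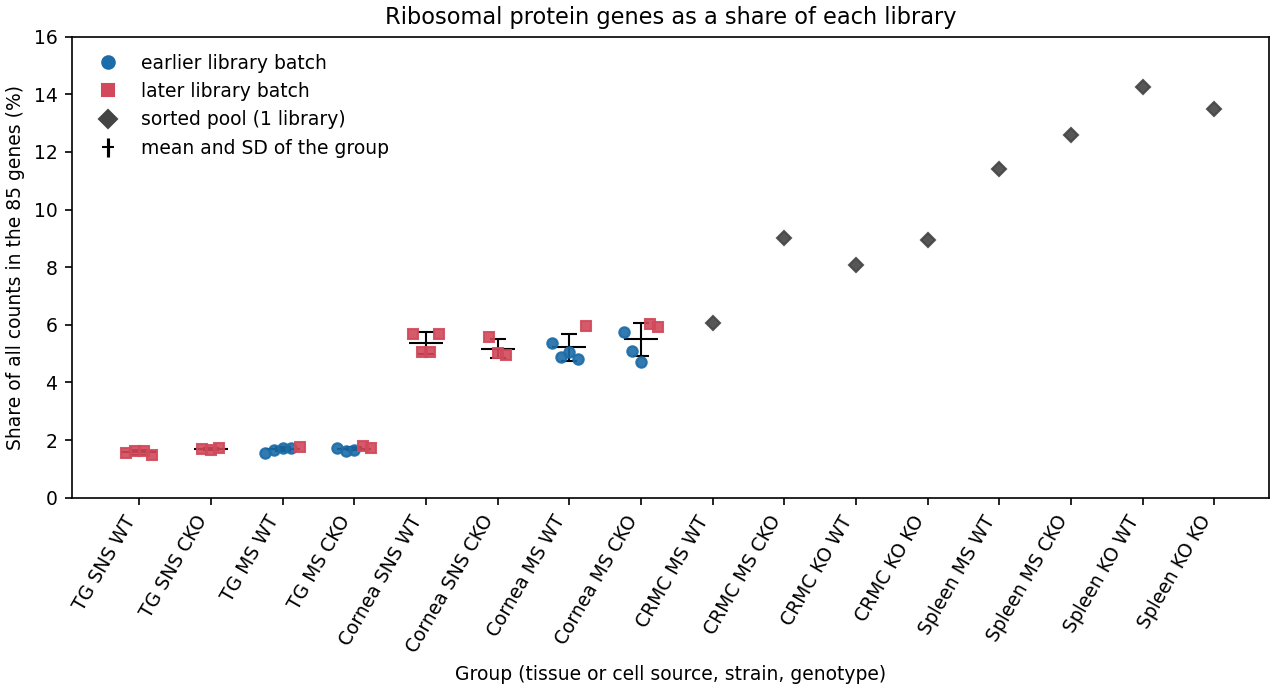
Share of library counts on the 85 ribosomal protein genes (percent, vertical axis) for every library, by tissue and group; each point is 1 library, coloured by batch, and bars mark group mean and SD. The TG libraries lie between 1.48 and 1.78%, cornea between 4.71 and 6.02%, CRMC pools between 6.05 and 9.002% and spleen pools between 11.4 and 14.2%.

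Summed over all members, the 52 large subunit genes took more counts than the 33 small subunit genes in TG and cornea. These sums are not adjusted for the number of genes. The ratio of large to small subunit counts was 1.27 ± 0.0396 in TG and 1.13 ± 0.0266 in cornea (SD, n = 17 each), and it was 1.04 to 1.13 in the spleen pools and 0.759 to 1.23 in the CRMC pools. The spread between libraries was similar to that of other genes in TG and cornea, though those genes were not matched for level. It was taken over all strains, genotypes and batches of a tissue. The median coefficient of variation of the core genes was 14.1% in TG and 17.9% in cornea, when compared to 14.6% and 16.7% for all genes at 20 CPM or more. In the pools it was 67.1% for CRMC and 39.2% for spleen, when compared to 154% and 65.2% for all genes.

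Every core gene but Rpl29 was counted in every TG and cornea library. Rpl10l, a testis paralog of Rpl10, was at 0 in all of them. Rpl3l, the striated muscle paralog of Rpl3, Rpl39l and the retrocopy Rpl32l were at 0 in at least 1 TG library. Among core genes, only Rpl29, a large subunit protein, reached 0 in TG, in SNS WT 3. By contrast, 25 of the 85 genes, 18 of them core, were at 0 in at least 1 CRMC pool. The 4 CRMC pools had 3 (KO), 10 (KO-WT), 0 (MS-CKO) and 12 (MS-WT) core genes at 0, with 3488, 1650, 6455 and 3380 genes detected in all. No core gene was at 0 in a spleen pool, where 7323 to 10559 genes were detected. Rpl3l was counted in spleen at 56.9 CPM in KO, 56.0 CPM in KO-WT and 15.7 CPM in MS-WT, and was at 0 in spleen MS-CKO and in all 4 CRMC pools.

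Wild-type TG was then compared with wild-type cornea within each strain. In SNS WT, all 82 ribosomal protein genes that passed the filter on low counts were lower in TG (adjusted p under 0.05, edgeR quasi-likelihood test with Benjamini-Hochberg adjustment over all genes), when compared to 37.2% of all genes tested being lower and 41.3% higher. The median log2 difference was -1.81, and single genes ranged from -3.37 to -0.44. In MS WT, 82 of 83 were lower, with 37% of all genes lower and 40.4% higher, and the median was -1.72. Across all genes the median was 0.07 in SNS and 0.05 in MS. The core large subunit genes had medians of -1.78 in SNS and -1.65 in MS, and the core small subunit genes -1.90 and -1.78. Without the 11 repeated libraries, which leaves 1 MS WT cornea library, 81 of 82 were lower in MS, with a median of -1.78 against 0.26 for all genes.

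Among core genes the gap was widest for Rps12, a small subunit protein known in Drosophila for its role in cell competition (chr10:23785183-23787275, minus strand). In SNS WT, its level was 284.3, 315.1, 291.2 and 205.5 CPM in TG and 1950.0, 1825, 1820.3 and 2211 CPM in cornea. The cornea libraries all lay far above TG, and the log2 difference was -2.94 (SE 0.12, adjusted p 4.2e-17 by edgeR). In MS WT, Rps12 was 309 ± 55.6 CPM in TG and 1783 ± 349 CPM in cornea (SD, n = 5 each), a log2 difference of -2.68 (SE 0.15), or -2.97 without the repeated libraries. Another core gene with a wide gap was Rpl12, a protein at the base of the stalk, with log2 differences of -2.65 in SNS and -2.31 in MS. Rpl39, which lines the exit tunnel, differed by -2.51 and -2.38, and Rpl13 by -2.45 and -2.56. The retrocopy Rpl32l was low in both tissues, at 1.23 ± 1.18 CPM in TG and 12.0 ± 3.92 CPM in cornea in SNS WT, and carried the largest log2 difference of that strain, -3.37. Rpl39l, a paralog of Rpl39, was at 0 in 4 of 5 MS WT TG libraries and 3.49 ± 1.94 CPM in cornea.

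At the other end stood Rpl15, a large subunit protein mutated in Diamond-Blackfan anaemia in people (chr14:18267823-18271391, minus strand). In SNS WT, Rpl15 was 31.6, 29.5, 29.4 and 29.95 CPM in TG and 40.1, 40.9, 27.9 and 40.6 CPM in cornea. The lowest cornea library lay below TG and the other 3 above it, with a log2 difference of -0.44 (SE 0.15, adjusted p 0.0111 by edgeR). In MS WT, Rpl15 was 23.4, 28.2, 36.9, 33.0 and 32.1 CPM in TG and 26.3, 23.6, 31.9, 26.3 and 29.3 CPM in cornea. These groups overlapped over most of their range, and the log2 difference was 0.01 (SE 0.16, adjusted p 0.947 by edgeR), the 1 exception among the 83 genes. Without the repeated libraries it was 0.09. Small gaps were also seen for Rpl38, needed in the mouse for translation of Hox mRNAs in the embryo, with -0.78 in SNS and -0.65 in MS, and for Rpl36al, a paralog of Rpl36a, with -1.03 and -0.74. Rpl3, which reaches towards the peptidyl transferase centre, differed by -1.11 and -1.02, and Rps6, the S6 kinase target downstream of mTOR, by -1.30 and -1.27.

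**Figure D2:**
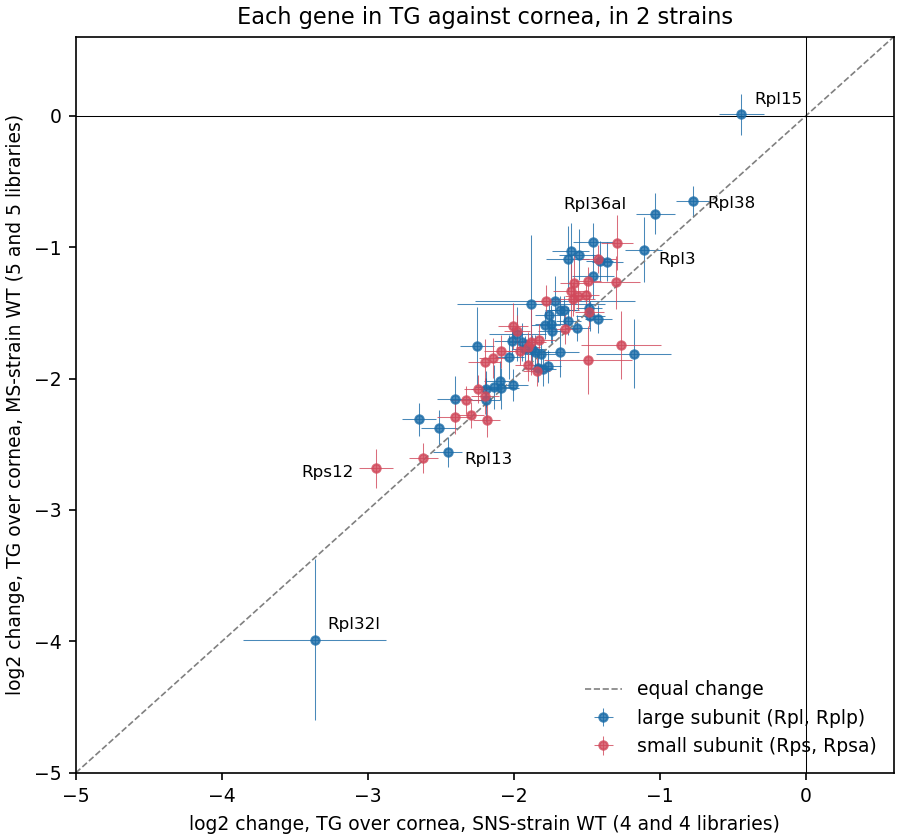
Log2 difference of TG minus cornea for each ribosomal protein gene in SNS WT (horizontal axis) and in MS WT (vertical axis), from the edgeR fits; each point is 1 gene, coloured by subunit, with bars of 1 SE. Rpl15 lies at -0.44 and 0.01, Rps12 at -2.94 and -2.68, and every gene lies below 0 on the horizontal axis.

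Other roles fell between these ends. The stalk proteins that call elongation factors to the ribosome differed by -2.19 (Rplp0), -1.63 (Rplp1) and -2.41 (Rplp2) in SNS and by -2.08, -1.56 and -2.15 in MS. Rpl5 and Rpl11, which bind Mdm2 when free of the ribosome, differed by -2.09 and -1.49 in SNS and by -2.07 and -1.46 in MS. Rpsa, also named the laminin receptor, differed by -1.56 and -1.37, and Rps27a, made as a fusion with ubiquitin, by -1.59 and -1.27. Copies of core genes were lower in TG too. Rps4l differed by -1.59 and -1.39 beside -2.20 and -1.87 for Rps4x, and Rps27l by -1.42 and -1.09 beside -1.83 and -1.71 for Rps27. Reads could be shared between genes, since 45 of the 85 genes share more than 50% of the 50-base words in the last 300 bases of their transcripts with transcripts of other genes, among them Rps12 (94.8%), while Rpl15 shares 0%.

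Relative to the other ribosomal protein genes, a subset stood out in the same direction in both strains. With every library scaled to the summed counts of the 85 genes, 27 of them were higher and 18 lower in SNS WT TG (81% of all genes higher and 10.6% lower on that scale), and 26 were higher and 17 lower in MS WT TG (78.4% and 10.9%). Of these, 22 were higher in both strains, which is 81.5% of the SNS list and 84.6% of the MS list, 15 were lower in both (83.3% and 88.2%), and 0 had opposite calls. On this scale Rpl15 was higher in TG by 1.45 (SNS) and 1.78 (MS) log2 units, Rpl38 by 1.11 and 1.14, Rpl36al by 0.86 and 1.04 and Rps25 by 0.59 and 0.82. Rps12 was lower, with -1.06 and -0.89, as was Rpl12 with -0.77 and -0.52. This scaling moved the median of all genes by 1.96 in SNS and 1.82 in MS.

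Neighbouring genes of the ribosome were read from lists chosen for their function. The list of ribosomal components that the symbol rule misses was lower in TG in 6 of 6 genes in both strains, with log2 differences of -2.66 and -2.57 for Rack1, a scaffold on the small subunit, and -1.86 and -1.82 for Rps3a1. Of the translation factors, 22 were lower and 4 higher, of 29 tested in SNS and 28 in MS. Eef1a1, the general elongation factor, differed by -1.69 in SNS and -1.75 in MS, whereas Eef1a2, its neuronal and muscle form, differed by 10.04 and 12.42. For genes of ribosome biogenesis, 18 were lower in each strain, and 5 (SNS) and 4 (MS) were higher, of 39 tested. Nop58, a nucleolar protein, differed by -1.15 and -1.18, and Polr1d, a subunit shared by RNA polymerases, by -1.80 and -1.47. Among those higher in both strains were Wdr12, with 1.15 and 1.27, Rrn3, with 0.84 and 0.72, and Nop10, with 0.78 and 0.75. These shares stand beside 37.2% (SNS) and 37% (MS) of all genes lower. Among 11 kinase and p53 pathway genes, 5 were lower and 3 higher in SNS, and 4 and 3 in MS. Tsc1, an inhibitor of mTOR, was higher in TG by 1.12 and 0.70, and Rptor by 0.96 and 0.76. Mtor itself was higher by 0.68 in SNS, and Rheb by 0.49 in MS. By contrast, Rps6ka1 differed by -1.76 and -1.78 and Mdm2 by -0.66 and -0.75.

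Within a tissue, the comparison of conditional knockout with wild type asked whether losing miR-183C from nociceptive neurons or from myeloid cells moved these genes. In none of the 4 comparisons did a ribosomal protein gene pass the edgeR test, and of all genes 0.0392% passed in SNS TG (0.0235% higher and 0.0157% lower), with 0 in the other 3. DESeq2 also called 0 of them in all 4. In SNS TG, 8 genes were higher and 1 lower in SNS-CKO at an unadjusted p under 0.05, of 81 tested, beside 852 of 12769 genes in all (6.67%). The log2 difference was positive for 66 of 81, with a median of 0.09, and for 26 of 30 core small subunit genes. With every library scaled to the summed counts of the 85 genes, 33 of 81 were positive and the median was -0.02. That scaling removes a shift shared by the 85 genes by construction, so these values cannot bear on such a shift.

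Rpl35, a protein at the rim of the exit tunnel, had the smallest p in SNS TG. It was 94.5, 105.2 and 95.7 CPM in SNS-CKO and 66.0, 86.1, 69.5 and 70.0 CPM in SNS WT. The groups did not overlap, but the log2 difference of 0.43 (SE 0.11) had an adjusted p of 0.301 by edgeR. Rps14, a protein of the small subunit platform, was 603.6, 497.1 and 478.7 CPM in SNS-CKO and 393, 411.8, 461.3 and 433.3 CPM in SNS WT, a log2 difference of 0.31 (adjusted p 0.422 by edgeR). Rps12, Rplp2 and Rps19 had log2 differences of 0.32, 0.30 and 0.24 that did not pass. Rps2, near the mRNA entry channel, had -0.74, or -0.18 without SNS WT 3, the 1 high library at 60.8 CPM, with 18.9 ± 4.29 CPM in SNS-CKO (n = 3) and 31.1 ± 20.03 CPM in SNS WT (n = 4), and the groups overlapped. In simulated data made from these libraries, edgeR recovered 42.3% of genes changed 1.5-fold and 71.4% of those changed 2-fold. The changed genes were drawn at random from all genes that passed the filter, with a spread that depended on level alone. Recovery of ribosomal protein genes was therefore not measured.

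In MS TG the differences were smaller. The median was 0.02 and 43 of 81 genes were positive. At an unadjusted p under 0.05, 2 genes were lower and 0 higher (2.98% of all genes in either direction), where Rps4l and Rpl6 had log2 differences of -0.39 and -0.27 (adjusted p 0.999 by edgeR for both). Without the repeated libraries, 0 were called, 42 of 81 were positive with a median of 0.02, and Rps4l and Rpl6 had -0.59 and -0.21. In SNS cornea, 40 of 83 genes were positive, and 1 gene was higher and 1 lower at an unadjusted p under 0.05 (6.24% of all genes). These, Rpl10a and Rpl35, had 0.47 and -0.48 (adjusted p 0.778 and 0.780 by edgeR). The groups overlapped for both genes, and SNS-CKO 3 lay farthest from the SNS WT libraries in each. In MS cornea, 68 of 83 genes were positive with a median of 0.13, and 29 of 30 core small subunit genes were positive. The 4 genes at an unadjusted p under 0.05 (3.56% of all genes), all higher, were Rpl28, Rpl7a, Rpl37a and Rpl30, with log2 differences of 0.40, 0.34, 0.37 and 0.31 at an adjusted p of 0.999 by edgeR. With batch as a term, 55 of 83 MS cornea genes were positive and the median was 0.05. Without the repeated libraries, 40 of 83 were positive and the median was -0.02. The difference of the knockout effect between strains, tested as an interaction, was called for 0 ribosomal protein genes in either tissue, beside 0.00728% of all genes in TG and 0 in cornea, and DESeq2 called 0 as well. At an unadjusted p under 0.05 there were 5 in TG (4.17% of all genes), among them Rps4l (0.65), Rps12 (0.36), Rpl6 (0.34) and Rps2 (-1.16), all at an adjusted p of 0.998 by edgeR, and 0 in cornea (2.48%). Without the repeated libraries the interaction was also called for 0. The neighbouring lists had 0 calls in all 4 comparisons.

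SNS WT and MS WT differ in Cre allele, miR-183C allele, RFP reporter and largely in batch, and these cannot be told apart. A batch term can separate batch alone. In TG, 0 ribosomal protein genes were higher by edgeR (4 at an unadjusted p under 0.05, and 1 called by DESeq2) and 5 lower in SNS WT, of 81 tested (0.942% of all genes higher and 1.28% lower, 2.22% in either direction). Rps14 had the smallest adjusted p. Its level was 393, 411.8, 461.3 and 433.3 CPM in SNS WT and 680.8, 754.5, 808.4, 827.5 and 526.7 CPM in MS WT. The groups did not overlap, with a log2 difference of -0.79 (SE 0.11, adjusted p 3.65e-04 by edgeR), and the lowest MS WT library, MS WT 5, was the later 1. The later MS-CKO libraries of TG, at 515.1 and 569.7 CPM, also lay below the earlier MS-CKO libraries, at 774.2 to 1034.9 CPM. The other 4 were Rps4l (-0.69), Rps28, at the mRNA exit channel (-0.49), Rpl27 (-0.40) and Rpl23a, near the tunnel exit (-0.36).

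**Figure D3:**
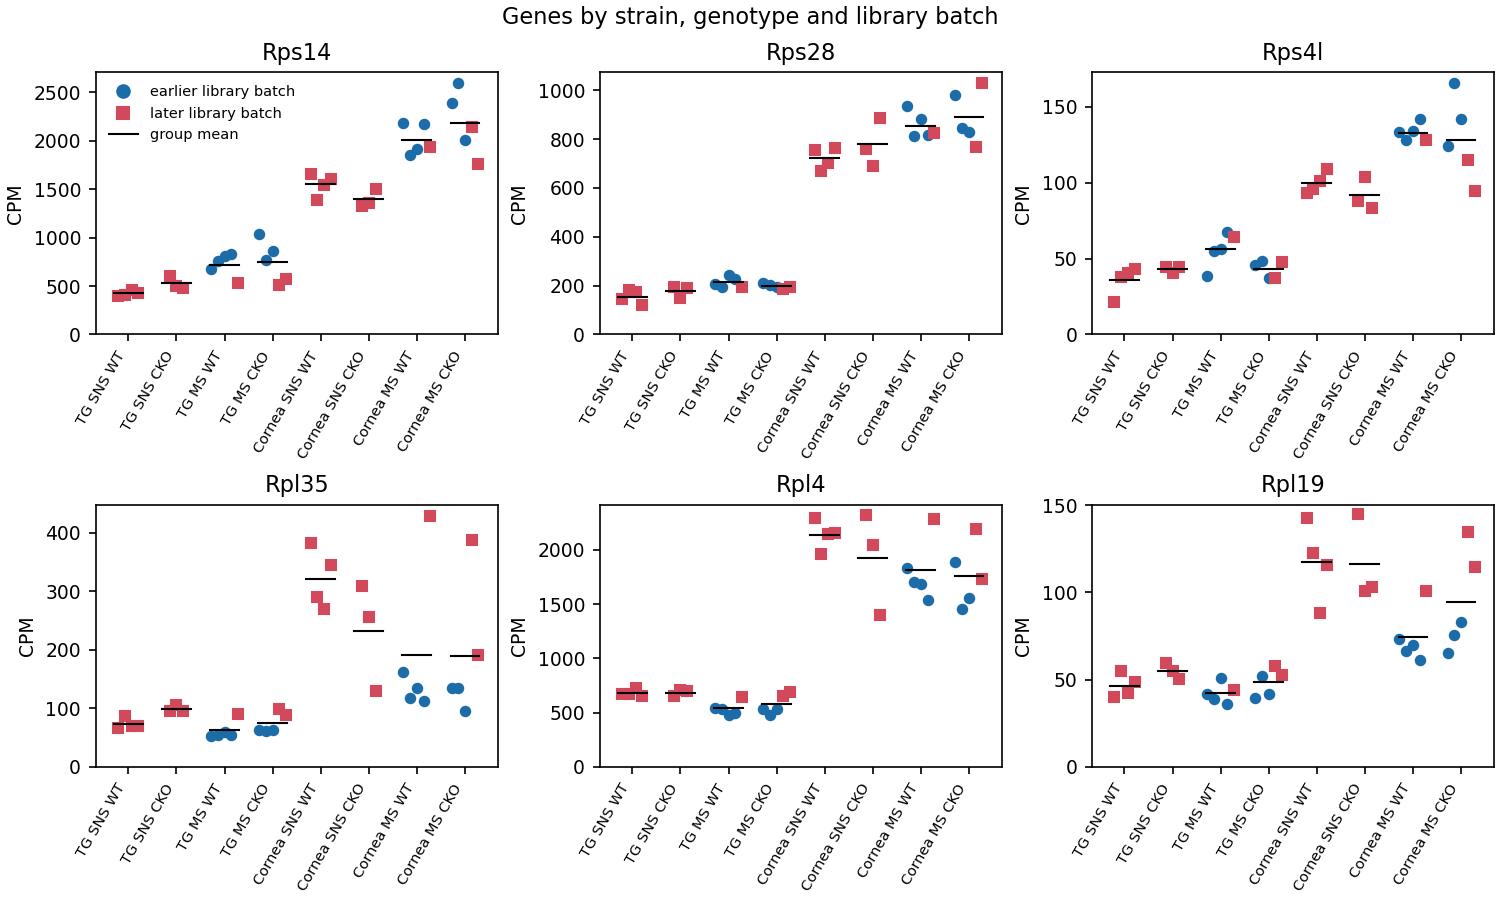
CPM (vertical axis, starting at 0) of Rps14, Rps28, Rps4l, Rpl35, Rpl4 and Rpl19 by tissue, strain and genotype; each point is 1 library, coloured by batch, and lines are group means. For Rps14 in TG the earlier MS WT libraries lie at 680.8 to 827.5 CPM, the later MS WT library at 526.7 CPM and the SNS WT libraries, all later, at 393 to 461.3 CPM.

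In cornea, 1 ribosomal protein gene was higher and 6 lower in SNS WT, of 83 tested (1.45% of all genes higher and 2.25% lower, 3.71% in either direction). The higher gene was Rpl19, which forms a bridge to the small subunit, with 0.61 (adjusted p 0.0243 by edgeR) and overlapping groups. The lower genes were Rps4l (-0.48), Rpl7 (-0.45), Rps14 (-0.45), Rps15a (-0.33), Rps29 (-0.32) and Rps28 (-0.31). Rps14 was 1659, 1389.9, 1539 and 1610.2 CPM in SNS WT and 2188.5, 1856, 1911, 2178 and 1933 CPM in MS WT, again without overlap. With batch as a term, or with the later libraries alone, 0 were called by edgeR in either tissue, with 15 (TG) and 13 (cornea) lower at an unadjusted p under 0.05 under the batch term (7% and 8.28% of all genes in either direction), and those settings rest on 1 later MS WT library per tissue. Without the repeated libraries, 2 were called in TG and 0 in cornea.

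Rpl35 and Rpl19 split the MS libraries by batch in cornea. Rpl35 was 96.05 to 161.9 CPM in the 7 earlier MS cornea libraries and 190.3, 388 and 429.4 CPM in the 3 later ones. Rpl19 was 61.2 to 83.2 CPM in the earlier and 100.7, 114.7 and 134.9 CPM in the later ones. In TG, Rpl35 was 53.3 to 63.2 CPM in the earlier MS libraries and 87.6 to 99.2 CPM in the later, and Rpl4, a large subunit protein of the tunnel wall, was 477.45 to 540.3 CPM and 641 to 689 CPM. No earlier library of either tissue reached the later range for the genes and tissues given here.

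Several genes followed the replicate number across tissues. Rpl34, a large subunit protein (chr3:130726831-130730398, minus strand), was 20.2 to 28.2 CPM in the 4 lowest TG libraries, 101.3 to 131.7 CPM in the next 4 and 203.4 to 286.4 CPM in the highest 9. In cornea the 4 lowest lay at 71.0 to 99.6 CPM, the next 4 at 283.4 to 394.4 CPM and the highest 9 at 526.3 to 652.6 CPM. The same group and number filled the same level in both tissues for 4 of 4, 4 of 4 and 9 of 9 libraries. The low level held MS-CKO 5, SNS-CKO 1, SNS WT 3 and SNS WT 4. It thus held both strains and both genotypes, but all 4 were later libraries. The middle level held MS WT 1, SNS-CKO 2, SNS-CKO 3 and SNS WT 2, of which only MS WT 1 was earlier. SNS WT 1 was the only SNS library in the highest level. Strain and batch could not be told apart in this pattern. Since the levels form separate clusters, no correlation over all libraries is given for Rpl34. Its transcript shares 54.2% of its 3′ words with other genes.

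Rps2 and Rpl3 had a more gradual spread and followed the number less closely. For Rps2 (chr17:24718116-24721929, plus strand), the highest 9 group numbers were the same in both tissues, at 33.6 to 68.3 CPM in TG and 119 to 255 CPM in cornea, and 2 of the lowest 4 and 2 of the next 4 were. For Rpl3 (chr15:80077791-80091868, minus strand), 8 of the highest 9, 3 of the lowest 4 and 2 of the next 4 were the same. Deviations from group and batch means correlated between tissues over 16 pairs with r = 0.894 and rho = 0.859 for Rps2 and with r = 0.874 and rho = 0.727 for Rpl3. The exact permutation p over 41472 pairings within groups was 0.00299 for Rps2 and 0.0108 for Rpl3. The adjusted values over 6982 genes were 0.544 and 0.755, and no gene passed. With that many pairings and genes, 1 gene at the lowest possible p could not pass alone, so the adjusted values cannot decide. The correlation of log2 CPM was 0.902 for Rps2 and 0.908 for Rpl3, and 0.872 and 0.838 without the 2 libraries farthest from the median. Other genes ran the opposite way. Rpl27 had r = -0.786 and rho = -0.791 of deviations with an exact permutation p of 0.00217 (adjusted 0.544), smaller than that of Rps2, and the median r was -0.079 over the 77 ribosomal protein genes tested and -0.015 over all genes. The labels do not say that TG and cornea of the same number came from the same mouse, and the pattern was noticed in these data before the test was chosen.

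**Figure D4:**
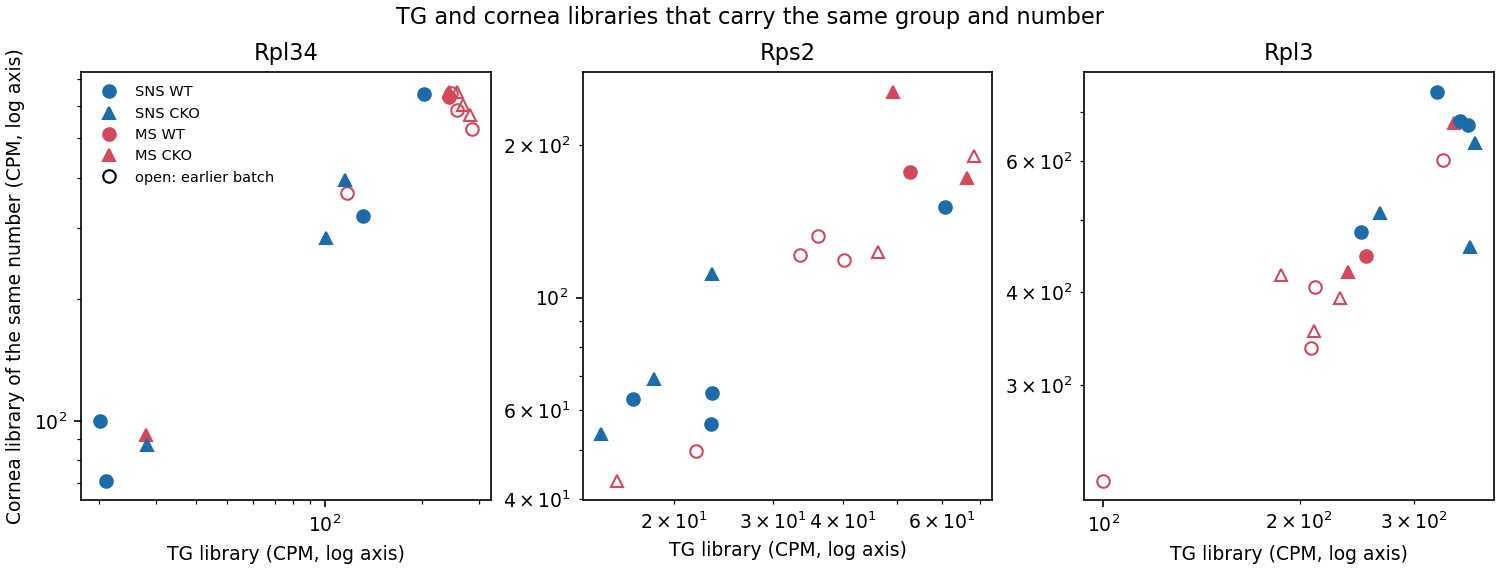
CPM in cornea (vertical axis, log scale) against CPM in TG (horizontal axis, log scale) for Rpl34, Rps2 and Rpl3; each point is the TG and cornea library of the same group and replicate number, open for the earlier batch. For Rpl34 the points form 3 clusters, with TG levels of 20.2 to 28.2, 101.3 to 131.7 and 203.4 to 286.4 CPM.

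The sorted cells were compared between organs with the pool genotype as a block (4 pools each). Ribosomal protein genes were mostly lower in CRMC, with 77 of 81 fitted log2 differences negative and a median of -1.47, when compared to -6.73 for all genes tested. On CPM the shift was milder, with 59 of 82 (KO), 56 of 79 (KO-WT), 56 of 81 (MS-CKO) and 77 of 82 (MS-WT) genes lower in CRMC and median ratios of 0.639, 0.40, 0.798 and 0.415. No count or median over all genes was made on CPM between organs, so these counts do not set ribosomal protein genes apart from other genes. Only Rpl37, a large subunit protein (chr15:5116645-5119140, plus strand), passed the edgeR test, with 0.848% of all genes higher and 1.16% lower (2.01% in either direction), so 1 of 81 is near the share of all genes. The call was lost with RLE factors, library totals, summed scaling or no filter, and without CRMC KO or spleen KO. In the order KO, KO-WT, MS-CKO and MS-WT, Rpl37 was 2412, 607, 2734 and 1955 CPM in CRMC and 6818, 7596, 4586 and 3274 CPM in spleen. The organs did not overlap, with a log2 difference of -2.01 (SE 0.56, adjusted p 0.0199 by edgeR). At an unadjusted p under 0.05, 0 were higher and 11 lower (23.8% of all genes in either direction), among them Rpl13a (-1.83, adjusted p 0.0522), Rps27 (-2.20), Rpl37a (-1.99) and Rps20 (-1.47, adjusted p 0.0926 by edgeR). The share of counts in CRMC was 0.662 (KO), 0.566 (KO-WT), 0.715 (MS-CKO) and 0.531 (MS-WT) times that in spleen of the same genotype.

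Markers of other cells moved with the organ. Corneal epithelium markers summed to 10322 to 42154 CPM in the CRMC pools and 426 to 665 CPM in spleen, where Krt12, Krt5, Krt14, Aldh3a1 and Pax6 were at 0. Keratocyte markers summed to 2059 to 28099 CPM in CRMC and 0 in spleen, while neutrophil markers summed to 16715 to 42331 CPM in spleen and 0 to 518 CPM in CRMC. Erythrocyte markers summed to 2788 to 55665 CPM in spleen and 0 to 185 CPM in CRMC, and B cell markers to 1061 to 1680.4 CPM in spleen and 0 in CRMC. Myeloid markers were 3509 to 14890 CPM in CRMC and 5531 to 6491 CPM in spleen. The part of these cells in the difference between organs was not tested.

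**Figure D5:**
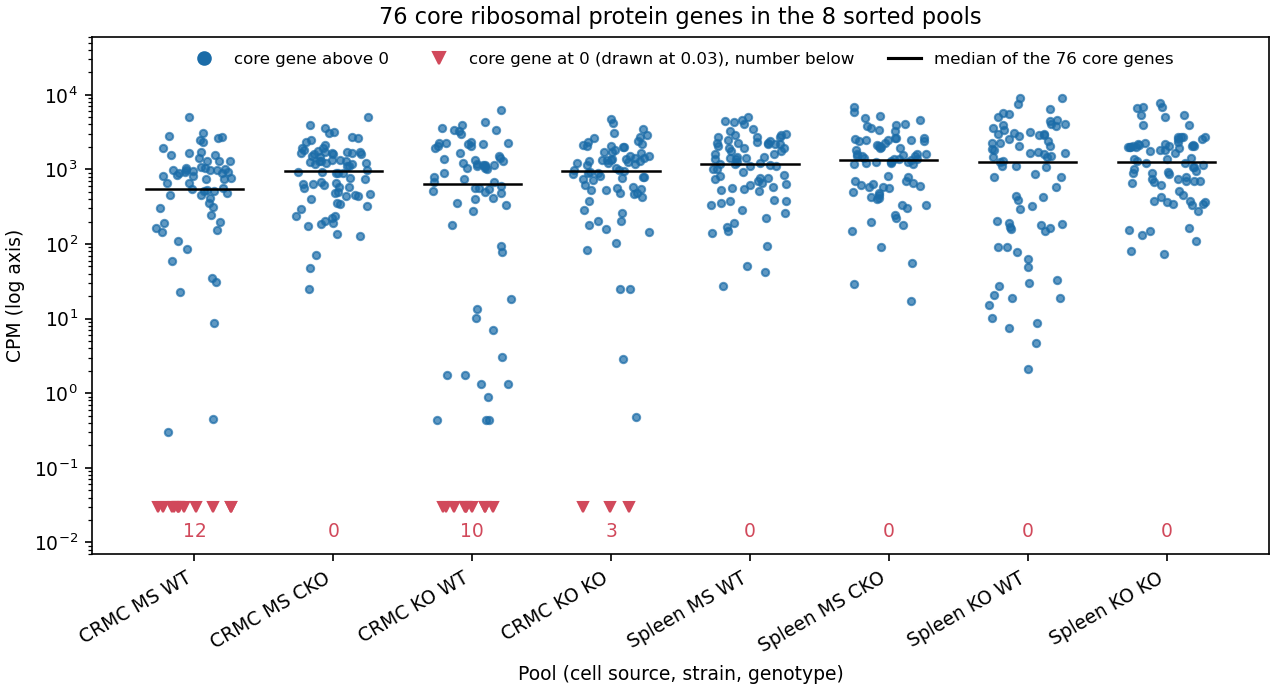
CPM of the 76 core genes (log axis) in each CRMC and spleen pool; each point is 1 gene, genes at 0 are drawn as triangles at the foot with their number, and lines are medians. The CRMC pools hold 3 (KO), 10 (KO-WT), 0 (MS-CKO) and 12 (MS-WT) core genes at 0, and the spleen pools hold 0.

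Knockout and wild-type pools had 1 library each, so their ratios have no replicate check. Intervals are exact 95% binomial intervals and cover counting error only. In CRMC KO over KO-WT, 35 of 76 ribosomal protein genes with at least 50 counts were more than 2-fold higher and 14 were below 0.5-fold, with a median ratio of 1.68 (all genes 62.3, with 67.3% above 2-fold and 24.6% below 0.5-fold). Genes swung in both directions there. Rpl8 had 5133 counts in KO and 1 in KO-WT, and Rpl28 had 3468 and 0, which is 620-fold higher against a floor of 3 counts. By contrast, Rpl5 had 0 counts in KO and 2311 in KO-WT, and Rps18 had 0 and 1659. In CRMC MS-CKO over MS-WT, 37 of 79 were more than 2-fold higher and 1 was below 0.5-fold, with a median of 1.80 (all genes 41.8, 64.4% and 23.2%). Rpl27a and Rps27a had 5192 and 4807 counts in MS-CKO and 0 in MS-WT, which is 1052- and 974-fold higher against the same floor. Corneal epithelium markers summed higher in the knockout pool of both pairs, at 41774 CPM in KO and 13687 CPM in KO-WT. In MS-CKO and MS-WT they summed to 42154 and 10322 CPM. Keratocyte markers summed to 2059 CPM in KO, 4189 CPM in KO-WT, 26427 CPM in MS-CKO and 28099 CPM in MS-WT. The part of these cells in the ratios was not tested.

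In spleen KO over KO-WT, 34 of 82 were more than 2-fold higher and 5 below 0.5-fold, with a median of 1.35 (all genes 1.83, 48.7% and 20.5%). Rps23, at the decoding centre, had 5838 counts in KO and 11 in KO-WT, a ratio of 424 (237 to 850), and Rpl13 had a ratio of 0.347. In spleen MS-CKO over MS-WT, 2 of 82 were more than 2-fold higher and 3 below 0.5-fold, with a median of 1.07 (all genes 0.946, 26.5% and 32.8%). The higher genes were Rpl29, with a ratio of 7.28 (6.39 to 8.32), and Rps4l, with 4.39. Rpl3l had 0 counts in MS-CKO and 146 in MS-WT.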

How the data were processed

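The deposited table held raw counts per gene made by the authors from QuantSeq FWD 3′ libraries read on a NovaSeq, aligned with STAR to mm10 and counted with HTSeq. Sources used here give no versions for these tools. In the table, 11 columns repeating MS libraries under KO-strain names and 1 column without a name were not used. Members and lists were chosen with earlier results of these data known.

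CPM used total counts. For each comparison, counts were filtered with filterByExpr, scaled by TMM and tested with the edgeR quasi-likelihood test (edgeR 4.0.16, R 4.3.3), with p-values adjusted by Benjamini-Hochberg over all genes and a threshold of 0.05. DESeq2 1.42.0, other scalings, no filter, batch and block terms and leaving out libraries were tried as alternatives. The fits were tested on simulated data. Named genes were those called with the largest differences, members of set roles, and, among uncalled genes, those with an unadjusted p under 0.05, up to 5 a direction; some members that this rule selects are not reported here. A count of 0 was compared at a floor of 3 counts, which with the exact binomial intervals covers counting error only. Promoter windows came from RefSeq. The 3′ sharing was counted on mm10 transcripts.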

Additional observations from a re-analysis of the deposited data

Results flagged for a closer look

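Within groups of 4 or 5 libraries, 78 groups over 12 members and the share of counts were examined for a library far from the rest. The 12 members were taken from genes printed in this report, with their values already seen. Chance alone flags about 1 in 20 groups of genes chosen beforehand, so the number flagged here cannot be set against that rate. In 9 groups the highest or lowest library stood apart by Dixon's criterion. Rpl34 was 27.94 CPM in TG MS-CKO 5, when compared to 243.1 to 282 CPM in the others of its group, 117.3 CPM in TG MS WT 1 (others 243.4 to 286.4) and 92.25 CPM in cornea MS-CKO 5 (others 571.7 to 652.6). Rps2 was 60.81 CPM in TG SNS WT 3 (others 16.95 to 23.43) and 150.9 CPM in cornea SNS WT 3 (others 56.23 to 64.67). Rpl35 was 89.59 CPM in TG MS WT 5 (others 53.33 to 58.53) and 429.4 CPM in cornea MS WT 5 (others 113.1 to 161.9). In cornea, Rpl3 was 676.3 CPM in MS-CKO 4 (others 354.1 to 425.5) and Rpl15 was 27.89 CPM in SNS WT 3 (others 40.12 to 40.93). For Rpl34 in MS-CKO 5, Rps2 in SNS WT 3 and Rpl35 in MS WT 5, the same number stood apart in both tissues, and MS WT 5 and MS-CKO 5 are later libraries.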

How the results depend on the processing

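Counts of called ribosomal protein genes moved by over 1.5 times under these settings. For SNS WT and MS WT in TG (5 called), they were, with the share of all genes called in brackets, 11 with DESeq2 (3.63%), 3 with library totals (2.34%), 11 with no filter (2.42%), 21 with the replicate block (9.24%), 0 with a batch term (0.0785%), 0 with later libraries only (0.109%), 2 without the repeated libraries (0.426%), and 1 to 19 leaving out each replicate, 19 without MS WT 5 (9.03%). In cornea (7 called), they were 11 with DESeq2 (6.23%), 3 with summed scaling (1.38%), 26 with no filter (4.11%), 30 with the replicate block (10.1%), 0 with a batch term (0.0249%), with later libraries only and without the repeated libraries (0.0887% each), and 3 to 29 leaving out each replicate, 29 without MS WT 5 (10.9%). For CRMC and spleen (1 called), they were 10 with DESeq2 (62.9%), 0 with RLE, library totals, summed scaling or no filter (0.828 to 1.84%), 6 with no replicate block (19.4%), and 0 to 5 leaving out each pool, 5 without CRMC KO-WT and 0 without CRMC KO or spleen KO. TG and cornea gave 45 calls in SNS and 43 in MS with summed scaling. The MS TG knockout comparison gave 1 with later libraries only, and the interaction in TG gave 1 with no filter. The labels do not pair the libraries by number. Correlations of same-numbered deviations were -0.047 to 0.102, mostly under 0.1, so pairing was not assumed, although 9 of 16 libraries, among them all 7 earlier MS libraries, correlated best with their own number, as a hint from the data.

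The share of counts moved when mitochondrial genes were left out, to 9.31, 9.03, 9.51 and 6.90% in CRMC and 13.9, 14.7, 13.2 and 11.9% in spleen (KO, KO-WT, MS-CKO, MS-WT) and to 1.75% in TG SNS-CKO. With the genes the rule missed, it was 9.145, 8.18, 9.12 and 6.10% in CRMC and 13.7, 14.3, 12.8 and 11.55% in spleen, in the same order.

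Signs turned with summed scaling between TG and cornea, in SNS and MS, for Rps4l (0.29, 0.37), Rps27l (0.46, 0.69), Rpl36al (0.86, 1.04), Rpl3 (0.76, 0.74), Rpl10 (0.25, 0.70), Rps27 (0.055, 0.069), Rpl36a (0.10, 0.19), Rplp1 (0.26, 0.23), Rpsa (0.32, 0.40), Rps6 (0.59, 0.52), Rps27a (0.30, 0.53) and Rpl11 (0.40, 0.32). With the other reading of strain names, in which earlier columns are SNS and later ones MS, TG SNS gave -0.0006559 for Rps12, -0.008724 for Rplp2 and 0.41 for Rps2, TG MS gave 0.035 for Rps4l and 0.027 for Rpl6, cornea SNS gave -0.24 for Rpl10a, and the TG interaction gave -0.35 for Rps4l, -0.15 for Rps12, -0.35 for Rpl6 and 0.47 for Rps2. With a batch term or later libraries only, the strain difference turned for Rpl23 in TG (-0.05), and for Rps25 (-0.10) and Rpl10 (-0.16) in cornea, both also without the repeated libraries. Rpl15 in MS TG and cornea ranged from -0.054 to 0.122 leaving out each replicate. Summed scaling removes a shift shared by the ribosomal protein genes by construction. The causes were not tested.

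The pairing test and the setting without the repeated libraries were chosen after seeing the data. The pools have no replicates, and 3′ tags of genes with close copies can be split between them.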

Other observations

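Rpl29 was singled out after its values were seen. Its level in TG was 0 CPM in SNS WT 3 and 1.3 CPM in MS WT 1, when compared to 5.3 to 18.1 CPM in the other 15 libraries. In cornea it was 3.0 CPM in SNS WT 3 and 1.3 CPM in MS WT 1, when compared to 16.6 to 65.3 CPM in the other 15. SNS WT 3 and MS WT 1 were thus the 2 lowest libraries in both tissues. Its mean in TG was too low for the test across tissues, and its transcript shares 51.8% of its 3′ words with other genes.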
